A study of Rattus norvegicus with 4 samples.

Results

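Genes of the citric acid cycle and of pyruvate entry into it were examined in the soleus, a slow postural muscle of the rat hindlimb, 10 days after the sciatic nerve was severed. The set of 30 genes was fixed by name, as the enzymes that carry pyruvate into the mitochondrion, convert it to acetyl-CoA, turn the cycle, and exchange its intermediates with the cytosol. Of these, 28 had at least 1 probe set annotated to that gene alone, 39 probe sets in all, out of 14217 genes named on the array. Fh and Dlat had none in the annotation used and are not analysed here.

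Male Wistar rats, 10 weeks old at the start and 14 weeks old by the sample labels, ate a control diet or the same diet with 0.05% genistein (0.5 g per kg), a soy isoflavone, for 24 days. On day 14 the nerve was cut in the left leg and the right leg had sham surgery. Diet and leg together made 4 groups, namely sham and denervated muscle on each diet. Each group was 1 array hybridised with RNA pooled from 8 rats, and for each diet the 2 pools came from opposite legs of the same animals, so the sham leg belongs to a rat that also carried a paralysed limb. No group has a replicate. No test within a diet was possible, no value has an error of its own, and every statement below describes these 4 arrays. Muscle was taken whole, so fewer cells of a type and less RNA per cell cannot be told apart.

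Pyruvate from glycolysis crosses the inner mitochondrial membrane through a carrier made of the Mpc1 and Mpc2 proteins, and the pyruvate dehydrogenase complex converts it irreversibly to acetyl-CoA. Kinases (Pdk) switch the complex off by phosphorylating its alpha subunit and phosphatases (Pdp) switch it on again. Citrate synthase joins acetyl-CoA to oxaloacetate, and the cycle then releases carbon dioxide and hands electrons to the respiratory chain. Slow oxidative fibres such as those of the soleus are rich in these enzymes, and citrate synthase activity is widely used as a marker of mitochondrial content.

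The values are signal intensities in arbitrary units as the authors scaled them. The 40th percentile of all signals, 78.9 units, served as a floor below which a signal was not read, and a log2 ratio of -1 means a signal 2-fold lower. A gene is represented by its brightest probe set, and the 28 genes were above the floor on all 4 arrays. The spread of ratios between probe sets of the same gene gives a scale for measurement scatter within the arrays. The spread compares probe sets on the same arrays, so scatter between arrays, pools or animals is not part of it. Its SD was 0.35 log2 units for the denervation ratio on the control diet, 0.36 on genistein, 0.26 for the diet ratio in sham muscle and 0.25 in denervated muscle.

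The surgery named in the titles was checked against the data, since the treatment field of 2 samples contradicts it. No gene was listed to check the diet. The 6 genes listed as responsive to nerve loss (Chrna1, Chrng, Myog, Myod1, Hdac4 and Gadd45a) had denervated over sham log2 ratios of 1.82 to 3.48 on the control diet and 2.09 to 3.73 on genistein. The tissue label was borne out by 9 of 9 genes of striated and slow muscle (Acta1, Ckm, Mb, Myh7, Tnni1, Tnnt1, Tnnc1, Myl2 and Myl3), the lowest signal among them being 5870 units. Their median denervated over sham log2 ratio was -0.73 and -0.95 (control, then genistein). Actin, whose 3′ probe set loses less signal than its 5′ probe set when RNA is degraded, had 3′ over 5′ quotients of 2.08 and 2.32 on the control and genistein sham arrays and 3.79 and 2.76 on the denervated arrays. For Gapdh the quotients went the other way, 1.24 and 1.20 in sham and 1.14 and 1.13 in denervated muscle. The part of RNA integrity in the ratios below was not tested.

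Promoter sequences of 23 of the 28 genes were found in the RefSeq table of the GRCr8 assembly, as 250 bases before and 50 after each annotated start. The 150 bases before the start are shown for both carrier genes, the role with the lowest median denervation ratio, and for the only members that hold the CREB motif. Capitals mark motifs that were searched for.

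Mpc1, chr1:54996959-54997108, minus strand: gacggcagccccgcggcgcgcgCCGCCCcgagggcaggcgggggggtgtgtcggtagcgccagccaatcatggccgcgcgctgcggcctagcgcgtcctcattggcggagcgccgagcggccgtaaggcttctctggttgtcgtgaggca

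Mpc2, chr13:80261106-80261255, plus strand: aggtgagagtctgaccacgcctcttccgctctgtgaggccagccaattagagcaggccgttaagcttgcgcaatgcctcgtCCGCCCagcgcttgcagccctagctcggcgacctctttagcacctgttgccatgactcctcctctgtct

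Mdh2, chr12:26543842-26543991, minus strand: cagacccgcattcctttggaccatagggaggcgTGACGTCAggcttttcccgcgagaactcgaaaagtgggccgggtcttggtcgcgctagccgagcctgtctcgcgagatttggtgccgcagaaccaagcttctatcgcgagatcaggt

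Ogdh, chr14:85363881-85364030, plus strand: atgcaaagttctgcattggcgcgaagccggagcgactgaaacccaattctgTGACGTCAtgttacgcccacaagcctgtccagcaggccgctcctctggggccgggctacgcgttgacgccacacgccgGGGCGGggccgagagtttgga

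The palindrome TGACGTCA, the CREB motif, lay at -117 to -110 from the start of Mdh2 and at -99 to -92 from that of Ogdh, and in 1.83% of the 33469 promoters of the table and 2.998% of those of genes measured on these arrays. The shares below are given in that order, all promoters and then measured genes. GGGCGG, or CCGCCC on the other strand, the Sp1 motif, was present in 15 of 23 members and in 33.1% and 60.2%. The motif of the oestrogen-related receptors, TCAAGGTCA on either strand, was in 0 of 23 members and in 0.433% and 0.268%, and its core AAGGTCA, which the longer motif contains, was in 0 of 23 and in 4.61% and 3.02%. GCGCATGCG of nuclear respiratory factor 1 was in 0 of 23 members and in 1.52% and 3.16%. CTAAAAATA of MEF2 was in 0 of 23 and in 0.511% and 0.364%, and GTAAACA of FoxO in 1 (Pdhb) and in 3.78% and 2.57%. CCGGAAG, the ETS and GABP motif, was in 5 of 23 members (Dlst, Idh3b, Idh3g, Mdh2 and Mpc2) and in 8.75% and 16.6%. The core, ETS and Sp1 letters were added after the other motifs had been counted. A match is only a run of letters in this window, and no match says nothing of sites elsewhere. The member promoters had a median GC content of 61.3%, against 60.7% for promoters of measured genes.

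Denervated and sham muscle were compared first, separately on each diet. Most of the genes were lower in denervated muscle, and by similar amounts on both diets. Of 28 genes, 16 were at least 2-fold lower on the control diet, where 7.63% of the 10755 measured genes were, and 18 on genistein, where 6.57% of 10810 were. None was 2-fold higher on either diet, against 5.04% and 4.96% of measured genes, or 3.59% on both. Ratios lay below 0 for 27 members on the control diet and 25 on genistein, where 50.2% and 48.3% of measured genes did. The members' median log2 ratios were -1.06 and -1.17 (control, then genistein), or 47.8% and 44.3% of the sham signal, beside medians of 0.00 and 0.02 over all measured genes.

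**Figure D1:**
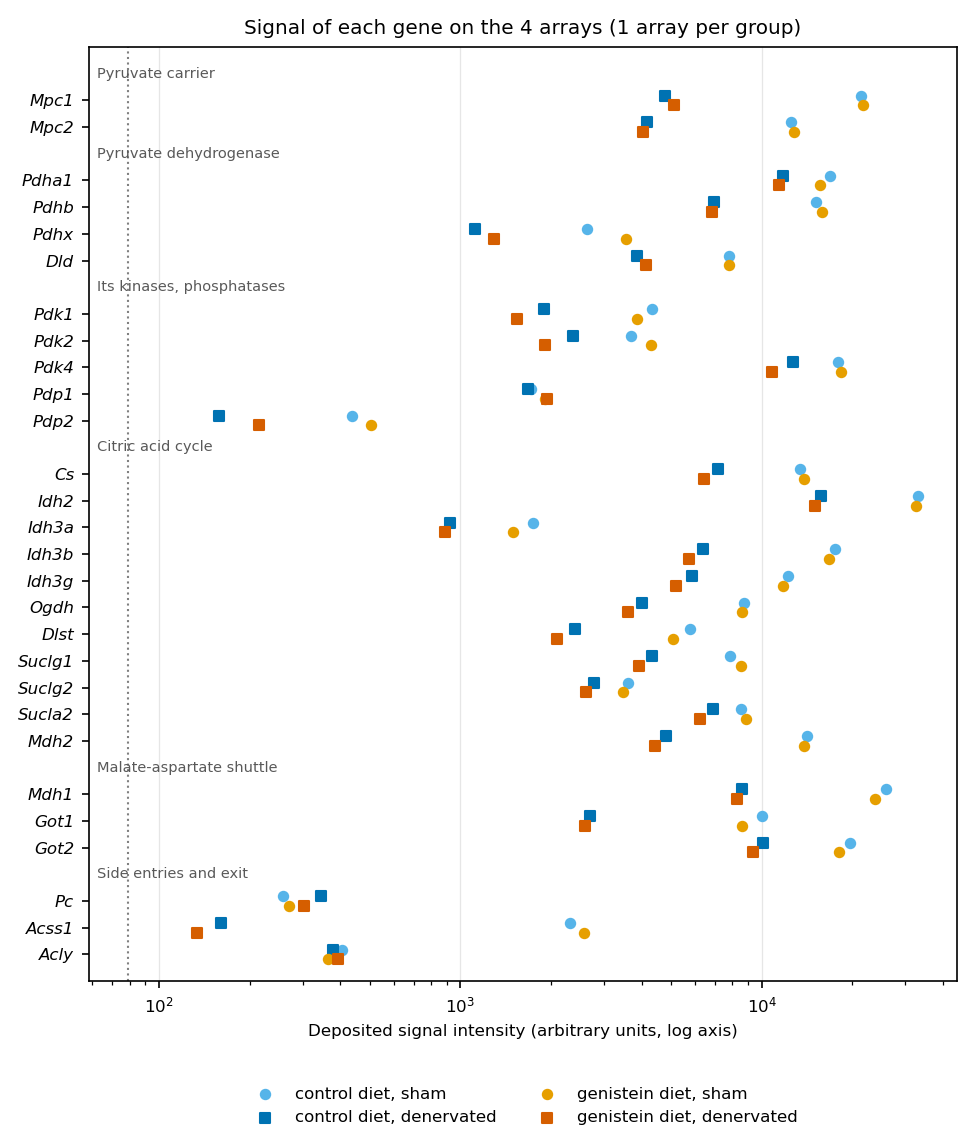
Signal of the 28 genes (rows, grouped by role) in arbitrary units on a log axis, with circles for sham and squares for denervated muscle, blue for control diet and orange for genistein; each point is 1 array and the dotted line is the floor of 78.9 units. In most rows both squares lie left of both circles, by most for Acss1, while the points of Pdp1, Pc and Acly lie close together.

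In all, 15 genes passed 2-fold on both diets, where 4.93% of genes measured on both did. Dld passed on the control diet alone (-1.01, against -0.91) and Cs, Suclg1 and Pdk2 on genistein alone, and 9 passed on neither. Nearest to the 2-fold line on the control diet were Dld inside it and Got2 (-0.96) outside it. The denervation ratios of the 2 diets, which share no array, correlated across genes at r = 0.975 over 28 genes and at 0.956 over 27 without Acss1, a description of genes that share the same arrays.

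How far the pathway lay below sham depended on how the arrays were scaled. Scaling to the hybridisation controls, RNAs added in known amount, raised the median of all genes to 0.35 (control) and 0.48 (genistein). Under it the members' medians were -0.70 and -0.69 and 8 and 7 of them were 2-fold lower, where 3.66% and 2.41% of genes were. Under quantile normalization the members' medians were -0.82 and -0.95. Of the members 11 and 13 were then 2-fold lower, where 7.08% and 6.5% of genes were. Relative to the median of all genes the members lay at -1.06 and -1.20 as deposited and at -0.82 and -0.94 under quantile normalization. With the hybridisation controls they lay at -1.05 and -1.18. That scaling multiplies every signal of an array by the same factor, so it can hardly change this distance.

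**Figure D2:**
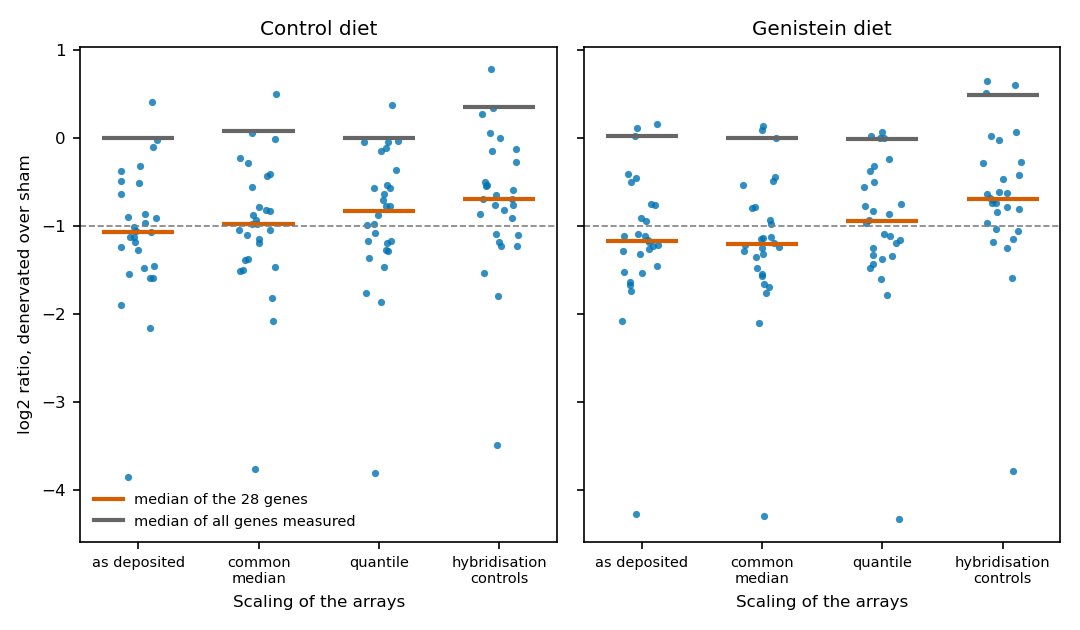
log2 ratio of denervated over sham signal for the 28 genes (blue points, spread sideways only for legibility) under 4 scalings of the arrays on each diet; orange lines are the median of the 28 genes, grey lines the median of all genes measured and the dashed line 2-fold lower. With hybridisation controls both medians lie higher, at -0.70 and 0.35 on the control diet. That scaling applies the same factor to every signal of an array and so can hardly change the distance between them. The distance is smaller under quantile normalization.

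Bright probe sets as a class were lower in denervated muscle. Among the 563 genes with a mean signal at or above that of the median member (5774 units), a limit set after the data were seen, the median log2 ratios were -0.33 and -0.36 for the control and genistein diets. In that class 20.2% and 23.1% of genes were at least 2-fold lower. The 14 members in that class had medians of -1.06 and -1.15, with 8 and 10 of them 2-fold lower. The 14 dimmer members had medians of -1.07 and -1.20, with 8 of them 2-fold lower on each diet.

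Both subunits of the mitochondrial pyruvate carrier were lower after denervation, and stayed more than 1 log2 unit lower under each scaling tried. Mpc1 read 21462 units in control sham, 4790 in control denervated, 21657 in genistein sham and 5137 in genistein denervated muscle. The denervated signals were 4.48-fold and 4.22-fold lower (log2 ratios of -2.16 and -2.08), and 0.86% and 0.91% of measured genes had a lower ratio. Mpc2, its partner subunit, read 12521, 4156, 12860 and 4045 units in the same order, 3.01-fold and 3.18-fold lower (-1.59 and -1.67). The sham pools were high and the denervated pools low for both subunits, with no overlap, and the diets were close within each. The share of all measured genes that separate in this way was not counted, here or below. Signals below follow the same order of arrays, or give sham before denervated where the diets are named separately, and pairs of ratios give the control diet first.

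Subunits of the pyruvate dehydrogenase complex were not lower to the same degree. Pdha1, the catalytic alpha subunit that carries the phosphorylation sites, read 16858, 11812, 15661 and 11394 units. It had log2 ratios of only -0.51 and -0.46. Its second probe set gave -0.35 and 0.08, and quantile normalization put the gene at -0.04 and 0.00 and hybridisation controls at 0.02 on genistein, so the direction for this subunit is not settled. Pdhb, the beta subunit that pairs with it, read 15186, 6936, 15882 and 6833 units (-1.13 and -1.22), lower than Pdha1 by 0.62 and 0.76 log2 units in ratio. Pdhx, the protein that anchors the dihydrolipoamide dehydrogenase to the core, read 2631, 1117, 3553 and 1297 units (-1.24 and -1.45). Dld, that dehydrogenase, which the oxoglutarate complex also uses, read 7770, 3854, 7773 and 4140 units (-1.01 and -0.91).

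The kinases that switch the complex off were lower in denervated muscle on both diets, to different degrees. Pdk1 read 4326 and 1898 units on the control diet and 3847 and 1540 on genistein, and its 2 probe sets stood at -1.19 and -1.19 on the control diet and -1.32 and -1.39 on genistein. Pdk4, the kinase induced by fasting and fatty acids, was lower by less. It read 17883, 12691, 18389 and 10822 units in control sham, control denervated, genistein sham and genistein denervated muscle, with ratios of -0.49 and -0.76, and quantile normalization brought it to -0.04 on the control diet. Pdk2, the widely expressed kinase, read 3688 and 2368 units on the control diet (-0.64) and 4295 and 1915 on genistein (-1.17), and its dimmer probe set gave -0.42 and -0.66.

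The phosphatases that switch the complex on went apart. Pdp1, the calcium-stimulated catalytic subunit of muscle, read 1712, 1683, 1906 and 1936 units, with log2 ratios of -0.02 and 0.02 whose sign moved with the scaling, up to 0.34 and 0.51 with hybridisation controls. Pdp2, the catalytic subunit linked to insulin and feeding, read 438 and 158 units on the control diet and 503 and 215 on genistein. Its ratios were -1.47 and -1.23, its dimmer probe set gave -1.17 and -1.31, and its ratio lay below that of Pdp1 by 1.45 and 1.25 log2 units. The 4 pools thus held similar Pdp1 signals, while for Pdp2 the denervated signals lay below both sham signals.

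**Figure D3:**
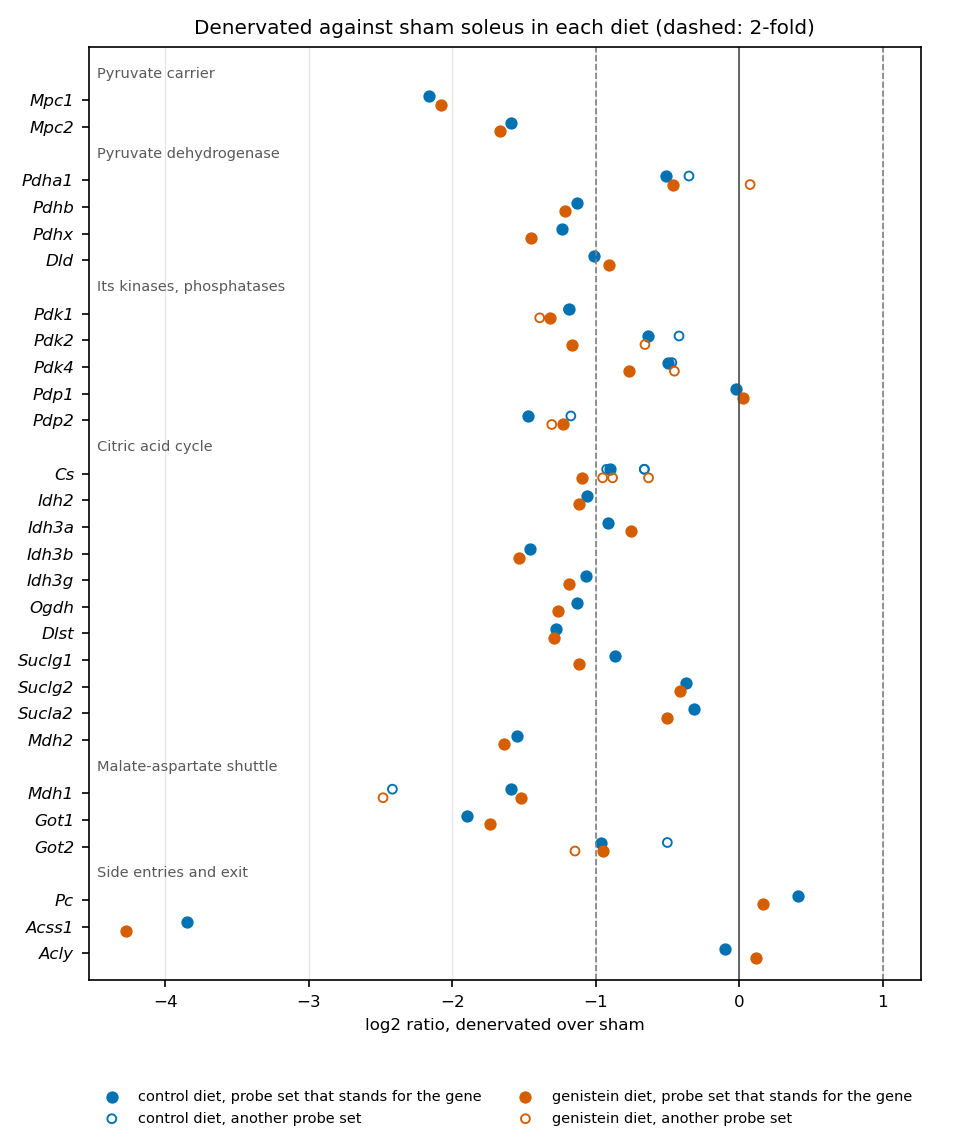
log2 ratio of denervated over sham signal for each gene on the control (blue) and genistein (orange) diets, from the arrays as deposited; filled points are the probe set that stands for the gene, open points its other probe sets above the floor on all 4 arrays, and dashed lines mark 2-fold. Acss1 lies lowest at -3.85 and -4.27, and Pc, Acly and Pdp1 lie near 0; with hybridisation controls Sucla2 on the control diet and Suclg2 and Pdha1 on genistein also came to lie above 0.

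Within the citric acid cycle, 11 of 11 measured enzymes had ratios below 0 on both diets as deposited, under median scaling and under quantile normalization, and 10 of 11 with hybridisation controls, where Sucla2 on the control diet and Suclg2 on genistein lay above 0. At least 2-fold lower were 6 on the control diet and 8 on genistein, with medians of -1.06 and -1.12. Those counts were 3 and 4 under quantile normalization, where 7.08% and 6.5% of all measured genes were 2-fold lower. With hybridisation controls they were 2 on each diet, where 3.66% and 2.41% of measured genes were 2-fold lower. Cs, citrate synthase, read 13366 units in control sham, 7147 in control denervated, 13795 in genistein sham and 6453 in genistein denervated muscle. The ratios of its 4 probe sets spanned -0.92 to -0.66 on the control diet and -1.10 to -0.63 on genistein. Idh2, the NADP-linked mitochondrial isocitrate dehydrogenase, read 32939, 15768, 32628 and 15079 units (-1.06 and -1.11), and -0.56 on each diet after quantile normalization.

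The NAD-linked isocitrate dehydrogenase, a rate-controlling enzyme, is built of alpha, beta and gamma subunits. Idh3b read 17519 and 6375 units on the control diet and 16730 and 5763 on genistein (-1.46 and -1.54). The gamma subunit Idh3g had -1.06 and -1.18. As deposited, the catalytic alpha subunit Idh3a was the least lowered, from 1744 to 924 units on the control diet and from 1501 to 891 on genistein (-0.92 and -0.75). Beta then lay 0.54 and 0.79 log2 units below alpha in ratio. On the control diet quantile normalization put Idh3b at -1.09, and Idh3a reached -0.99 over the settings tried. The order of the subunits and the gap on that diet are thus not settled. For each subunit both denervated signals were below both sham signals.

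In the oxoglutarate dehydrogenase complex, Ogdh, its decarboxylase, had ratios of -1.13 and -1.26 and Dlst, its succinyl-transferring core, -1.28 and -1.29. Dlst read 5803, 2398, 5099 and 2086 units and Ogdh 8768, 4003, 8620 and 3594 in control sham, control denervated, genistein sham and genistein denervated muscle. The succinyl-CoA ligase that follows showed smaller ratios for its alternative beta subunits than for the alpha subunit that both bind. Suclg1, the alpha subunit, read 7880, 4319, 8519 and 3920 units (-0.87 and -1.12). Sucla2, the ADP-forming beta subunit, read 8575, 6897, 8853 and 6251 units (-0.31 and -0.50), and Suclg2, the GTP-forming beta subunit, read 3590, 2778, 3475 and 2614 units (-0.37 and -0.41). The lowest of the beta subunits' ratios, -0.50, was thus not far past the SD of 0.36 between probe sets. Mdh2, the malate dehydrogenase that regenerates oxaloacetate, had the lowest ratios among the cycle enzymes, with 14154 and 4828 units on the control diet and 13778 and 4432 on genistein (-1.55 and -1.64, or 34.1% and 32.2% of sham).

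Enzymes of the malate-aspartate shuttle, which brings the electrons of cytosolic NADH into the mitochondrion, were lower too. Of its aspartate aminotransferases the cytosolic one was lower by more. Got1, the cytosolic aspartate aminotransferase, read 10051 and 2696 units on the control diet and 8641 and 2596 on genistein, 3.73-fold and 3.33-fold lower. Got2, its mitochondrial counterpart, read 19631, 10082, 18108 and 9376 units (-0.96 and -0.95), and a dimmer probe set gave -0.50 and -1.14. Mdh1, the cytosolic malate dehydrogenase, read 25821, 8582, 23792 and 8297 units (-1.59 and -1.52). These ratios were close to those of the mitochondrial Mdh2 (-1.55 and -1.64). The other probe set of Mdh1 gave -2.42 and -2.48, the widest disagreement between probe sets of any of these genes. The difference in ratio between Got1 and Got2 was -0.94 and -0.79 log2 units.

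The remaining genes feed acetyl-CoA or oxaloacetate from elsewhere, or draw citrate off. Acss1, which makes acetyl-CoA from acetate inside the mitochondrion, had the lowest ratio of the set. Its signals on the control diet were 2314 units in sham and 160 in denervated muscle, and on genistein 2577 and 134. Those signals are 14.4-fold and 19.3-fold lower, and 0.12% and 0.056% of measured genes had a lower ratio. Pc, pyruvate carboxylase, which makes oxaloacetate from pyruvate, read 259, 344, 270 and 303 units (0.41 and 0.16), above sham under each scaling tried. Acly, the cytosolic enzyme that cleaves citrate for lipid synthesis, read 404, 377, 362 and 393 units (-0.10 and 0.12), a difference inside the SD between probe sets that turned positive on the control diet with hybridisation controls. Pc and Acly are abundant in fat cells, whose 8 listed markers (7 on the array, 6 above the floor on some array) had summed signals of 10090, 4735, 10464 and 7046 units, most of it from Fabp4 and Plin4. By gene the 2 diets differed. On the control diet 2 of 5 measured markers were at least 2-fold lower, where 7.63% of measured genes were, with a median of -0.18. On genistein 3 of 6 (Plin1, Cidec and Cfd) were at least 2-fold higher, where 4.96% of measured genes were. Lower by 2-fold there was 1, where 6.57% were, and the median was 1.01. Cidec was above the floor only in genistein denervated muscle, so that its ratio of 1.06 is a lower bound. Plin4 was 2-fold lower on both (-1.82 and -2.51). Lep, a defining marker, was below the floor on all 4 arrays. The part of fat cells in these values was not tested.

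Other genes of the pathway, taken from fixed lists, were also lower within the cycle and mixed around it. For this list and those below, the shares of all measured genes as deposited were 7.63% (control) and 6.57% (genistein) at least 2-fold lower. Those at least 2-fold higher were 5.04% and 4.96%. Of 6 further cycle enzymes measured, 4 were at least 2-fold lower on both diets, all of them subunits of succinate dehydrogenase: Sdha (-1.14 and -1.16), Sdhb (-1.35 and -1.41), Sdhc (-1.45 and -1.45) and Sdhd (-1.16 and -1.15). The cytosolic Idh1 lay above sham (0.92 and 0.62) and cytosolic aconitase Aco1 near it (0.00 and 0.18). With hybridisation controls 1 of the 6 passed 2-fold lower on the control diet and 0 on genistein, where 3.66% and 2.41% of genes did. With quantile normalization 1 passed on each diet, where 7.08% and 6.5% of genes did.

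Of 12 other pyruvate, lactate and lipoate enzymes measured on the control diet and 13 on genistein, 2 and 3 were at least 2-fold higher and 0 and 1 lower. Me2, the mitochondrial malic enzyme that turns malate into pyruvate, read 239 and 1742 units on the control diet and 211 and 1446 on genistein (2.87 and 2.78). Gpt2, the mitochondrial alanine aminotransferase, was below the floor in control sham muscle, where its ratio of 1.52 is a lower bound, and had 1.52 on genistein. Pck1, the cytosolic carboxykinase of gluconeogenesis and of fat cells, passed on genistein alone (0.16 and 1.19). Its genistein sham signal of 78.8 units was just below the floor, so that 1.19 is a lower bound. The control diet signals, 86.6 and 96.5 units, were close to the floor.

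Among 9 other acetyl-CoA, ketone and glutamate enzymes, 2 (control) and 4 (genistein) were 2-fold lower. Oxct1, the enzyme that activates ketone bodies, read 17898, 3201, 18195 and 3968 units (-2.48 and -2.20). Bdh1, hydroxybutyrate dehydrogenase, was below the floor in both denervated pools, so that its ratios of -1.29 and -1.51 are bounds. Fasn, fatty acid synthase, was 2-fold higher on genistein alone (0.27 and 1.34). Among the carriers of malate, aspartate, citrate and oxoglutarate, 1 of 6 passed 2-fold lower on the control diet and 2 of 7 on genistein, with Slc25a13, an aspartate-glutamate carrier, on both (-1.47 and -1.20).

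Regulators of oxidative metabolism were listed too, of which 15 were measured and 5 were at least 2-fold lower on each diet. They were the coactivator Ppargc1b (-2.01 and -1.58), Perm1 (-6.17 and -6.44), the oestrogen-related receptors Esrra (-1.40 and -1.71) and Esrrg (-1.09 and -1.18), and the mitochondrial deacetylase Sirt3 (-1.78 and -1.76). Ratios above 0 were found for 5 of the 15 on each diet, and Foxo1, a FoxO transcription factor, had ratios of 1.42 and 0.78, past 2-fold higher without genistein. Ppargc1a had ratios of -0.57 and -0.78, and Ppara was below the floor on all 4 arrays. With hybridisation controls 4 of 14 regulators on the control diet and 4 of 15 on genistein passed 2-fold lower, where 3.66% and 2.41% of measured genes did. Those 2-fold higher were then 1 and 2, where 11.8% and 16.4% of measured genes were.

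Cells other than fibres also differed between the pools, and their part in the ratios above was not tested. Summed over the 8 listed fibroblast genes, all on the array, the signal was 57948 units in control sham, 27753 in control denervated, 58248 in genistein sham and 44254 in genistein denervated muscle. Col1a1 was the fibroblast gene at least 2-fold lower on both diets (-2.40 and -1.94). The endothelial sum (6 of 7 on the array) was 3927, 1933, 3980 and 2834, and the macrophage and leukocyte sum (8 of 8) 5110, 4420, 5458 and 6951. The Schwann cell sum (5 of 7, of which Sox10 was below the floor throughout) was 3423, 3401, 3473 and 4497, the satellite cell sum (3 of 5) 1105, 794, 1069 and 742, and the erythrocyte sum (3 of 6) 15580, 10454, 7823 and 6603. Most of the Schwann cell sum came from Pmp22, of the macrophage and leukocyte sum from Cd74, and of the erythrocyte sum from Hbb. The other measured Schwann cell markers differed in direction on the control diet (S100b -0.24, Prx -0.75 and Mbp 0.48) and lay above 0 on genistein. The 9 striated muscle genes summed to 372202, 217546, 332759 and 176896 units. The sum over the 28 pathway genes was 289536, 134993, 284871 and 126649.

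Genistein and control diets were then compared in muscle with its nerve intact. None of the 28 genes differed 2-fold in sham muscle, where 0.324% of 10819 measured genes were 2-fold higher on genistein and 0.287% lower. The median log2 ratio of genistein over control diet was -0.01, with 14 genes above 0 and 14 below, where 49.5% of measured genes were below. Pdhx (2631 units without and 3553 with genistein, 0.43) was the only gene past the SD of 0.26 between probe sets. The lowest ratios were those of Got1 and Idh3a, both -0.22.

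**Figure D4:**
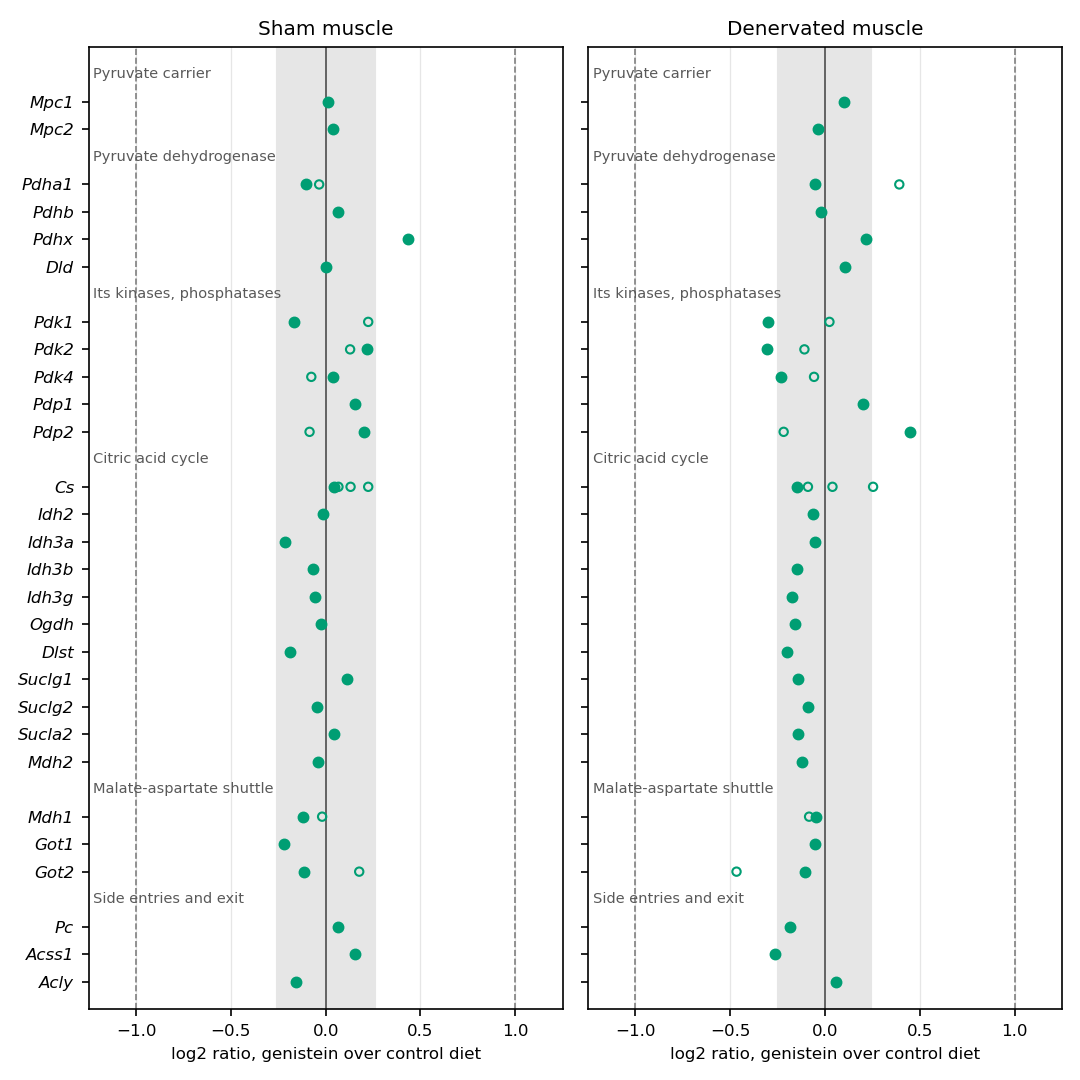
log2 ratio of genistein over control diet for each gene in sham (left) and denervated (right) muscle; filled points are the probe set that stands for the gene, open points its other probe sets, the grey band is the SD between probe sets of a gene (0.26 and 0.25) and dashed lines mark 2-fold. No gene reaches 2-fold, and in denervated muscle the 11 cycle enzymes lie between -0.20 and -0.05, a direction that turned for 4 of them with hybridisation controls.

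In denervated muscle, the comparison nearest to the study's title, genistein and control diet pools also differed by less than 2-fold for the 28 genes, where 1.02% of 10479 genes were 2-fold higher and 0.124% lower. The median log2 ratio was -0.10, with 22 genes below 0, where 49.9% of measured genes were, and 12 with hybridisation controls, where the median was 0.03. Past the SD of 0.25 were Pdp2 (158 and 215 units, 0.45), Pdk2 (2368 and 1915, -0.31), Pdk1 (1898 and 1540, -0.30) and Acss1 (160 and 134, -0.26). The other probe set gave -0.22 for Pdp2, -0.11 for Pdk2 and 0.02 for Pdk1.

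The 11 cycle enzymes were each slightly below 0 in that comparison, from -0.20 for Dlst to -0.05 for Idh3a, with a median of -0.14. The bright genes described above had a median of -0.13 and the 9 striated muscle genes -0.33, all 9 below 0. With hybridisation controls 4 of the 11 (Idh2, Idh3a, Suclg2 and Mdh2) came to lie above 0, and with quantile normalization Idh2 did. Between these pools the 3′ over 5′ quotient was 3.79 on the control diet and 2.76 on genistein for actin, and 1.14 and 1.13 for Gapdh, and the part of RNA integrity was not tested.

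The denervation ratio was compared between the diets last. The diet ratio in denervated muscle shares its arrays with the denervation ratios, so these values are not independent of those above. The genistein minus control difference of the 2 denervation ratios had a median of -0.08 over the 28 genes, 18 of them below 0, where 50.4% of measured genes were; with hybridisation controls the median was 0.04. None passed 2-fold, where 1.88% of 11151 genes did upward and 0.708% downward. Pdk2 had the largest difference (-0.53, and -0.24 on its dimmer probe set), followed by Acss1 (-0.42). The differences of the other 26 genes were within 0.34, the SD between probe sets for this quantity. Dimmer probe sets of Got2 (-0.64) and Pdha1 (0.43) lay outside that range, where their brighter ones gave 0.01 and 0.05.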

How the data were processed

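Each probe set has a linear intensity that the authors deposited for each of the 4 arrays, and GCOS version 1.1 is named in the submitters' processing notes. The scaling target and the detection calls are not given in the sources used here. Of 31099 probe sets, 57 were controls. GEO's platform annotation gave 20826 probe sets 1 gene symbol and 436 several, and listed no gene for 9780. The identifiers of the 39 member probe sets matched GRCr8 with 0 symbols changed. Signals were raised to the 40th percentile (78.9 units) and log2 was taken. Each gene took its probe set of highest mean log2 signal, and a gene was measured where 1 compared array exceeded the floor. The SD between probe sets came from 2310 genes with 5373 probe sets above the floor on all arrays. With 1 array per group, genes were counted at 2-fold without a test, and the number of arrays limits the precision. The steps were tested on simulated data. All 30 members, and of the other lists those 2-fold in the same direction on both diets, are named. The rule also asked for the 2 highest and 2 lowest of a list with none, but markers of other cells are given there as sums, and other named genes were picked after their values were seen. Members, lists and motifs were chosen with earlier results of these data known. The analysis used Python 3.11.15, numpy 2.4.6 and pandas 2.3.3. Alternatives were 3 scalings (common median, quantile, 18 hybridisation control probe sets), floors at the 20th and 60th percentile, 32 units added with no floor, the mean of all probe sets, and 1.5-fold.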

Additional observations from a re-analysis of the deposited data

How the results depend on the processing

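Of 8 alternatives, scaling to the hybridisation controls moved the denervation results: the median became -0.70 on the control diet and -0.69 on genistein, and the count of genes at least 2-fold lower became 8 and 7. By its construction that scaling multiplies every signal of an array by the same factor, and it put the median of all genes at 0.35 and 0.48. Under it 3.66% and 2.41% of genes were at least 2-fold lower. The other 7 alternatives kept both denervation medians between -1.20 and -0.82 and the counts within 1.5 times the reported ones, up to 21 and 22 at 1.5-fold, where 17.7% and 15.4% of genes were lower. The diet medians lay between -0.03 and 0.04 in sham and between -0.23 and 0.03 in denervated muscle, and the diets' difference in denervation ratio between -0.19 and 0.04, with 0 genes past the fold in any of them. No gene at least 2-fold lower changed sign. Scaling to the hybridisation controls moved 56 single-gene values past the SD between probe sets, the most of any alternative, and quantile normalization moved 12. The mean of all probe sets moved 3 (Mdh1 to -2.00 on both diets, Pdp2 to 0.11 for the diet ratio in denervated muscle). The 60th percentile floor moved 4 (Acss1 to -3.41 and -3.57, Pdp2 to -1.01 on the control diet and to -0.20 for the difference). No paired analysis was possible because each group has 1 pooled array and no replicate numbers. Each denervation ratio already sets legs of the same rats against each other, and a fit that treats the diets as 2 such pairs was not run. Signals near the floor, here those of Acss1 and Pdp2 in denervated muscle, limit the size of a ratio that can be read.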
